A study of Mus musculus with 6 samples.

Results

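Translation factors are the proteins that load ribosomes onto mRNA and carry them along it. The genes described here are those whose symbols begin with Eif1 to Eif6 or with Eef1 or Eef2, leaving out the Eif4ebp genes and Eif2ak2. Membership follows from the symbol, among the probe sets that the platform annotation gives exactly 1 gene symbol. The genes were chosen with earlier results of these data known. The rule took 144 of 45037 non-control probe sets, which read 55 of the 18193 genes with such a probe set. Eif1, Eif2s1, Eif3g, Eif4g1 and Eef1g had no probe set under this rule and were not analysed here.

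The samples were mouse cells that the labels call breast cancer stem cells, kept in serum-containing medium and sorted by the surface proteins CD24, a glycoprotein, and CD29, the integrin beta-1 chain. Cells carrying both proteins (CD24+CD29+) and cells carrying neither (CD24-CD29-) were each measured on 3 Affymetrix Mouse430_2 arrays. The labels name no mouse strain, genotype, line or age, and both groups had the same culture conditions. The series' design text describes the 3 sample sets as independent and biological without naming separate cultures or sorts, so p-values measure the spread between these samples, which may be technical in part.

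In initiation, eIF2 brings the initiator tRNA to the small ribosomal subunit, eIF3 holds the complex together, and the eIF4 proteins bind the cap of the mRNA and unwind its leader. eIF2B reloads eIF2 with GTP, and kinases that phosphorylate eIF2 block that step. In elongation, eEF1 brings each aminoacyl-tRNA to the ribosome and eEF2 moves the ribosome to the next codon, unless eEF2 kinase has phosphorylated it. The series' title names PI3K and mTOR signalling, a pathway known to act on several of these factors through their proteins. Arrays measure RNA only, so the factors are described here by their RNA, and the activity of that pathway was not measured.

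Some translation factor mRNAs begin with a terminal oligopyrimidine (TOP) tract, a cytosine followed by a run of pyrimidines, through which mTOR is known to control their translation. The start-site windows of 4 genes that carry the results on this class are shown for that reason, from RefSeq promoters of mouse GRCm38.p6, 5′ to 3′ on the transcribed strand, each running from 19 bases before to 10 after and including the annotated start. Capitals mark a C followed by at least 4 pyrimidines that starts within 5 bases of the annotated start; this pattern was searched on the transcribed strand only.
Eef1a1 (chr9:78481714-78481743, minus strand): gtgtgctggctccgCCCTCTTCCCgagggt
Eif3f (chr7:108934396-108934425, plus strand): ctcttctgttctaggCTCTCTCTCTTTCTC
Eef2 (chr10:81176612-81176641, plus strand): gacctataaaaggccgggcgttgacgtcag
Eef1b2 (chr1:63176812-63176841, plus strand): gacttggacctgcagttccgccggaagtag
The pattern stood at 18.3% of 32851 starts in the table, and at 15 of 60 starts (25%) of the translation factors, 45 of which had a start there. A match is a description of letters, and a window without one says only that those letters are not in this window.

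The deposited values were log2 levels. A gene was read by its brightest single-symbol probe set, passing over _x_at sets, whose probes may bind related transcripts, where another existed. Groups were compared with limma over all 18193 genes, and a gene passed when its Benjamini-Hochberg adjusted p lay under 0.05. Differences are log2 values of CD24+CD29+ cells minus those of CD24-CD29- cells. Levels of different probe sets are not comparable with one another, so levels are compared between groups only. Arrays of a group correlated at 0.998 to 0.999 over genes, which are not independent replicates, and arrays of different groups at 0.974 to 0.978. Of all genes, 70.8% passed, 34.4% higher and 36.5% lower in CD24+CD29+ cells, so passing the threshold was the common outcome.

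CD24+CD29+ cells had more RNA of elongation factor 2 and of its kinase, of 7 of 11 eIF3 subunits and of 4 of 5 eIF2B subunits, and less RNA of Eef1a2, Eef1b2, Eif4e3 and the eIF2 kinase Eif2ak3. These directions hold for the deposited scaling: scaling to added control RNAs turned the 4 lower genes upward, and of the eIF3 and eIF2B calls only those of Eif3a, Eif3b, Eif3c, Eif3d, Eif2b1 and Eif2b3 were kept under every alternative run. Eif3b, Eif2b1 and Eif2b3 were read by 1 probe set each, so averaging or choosing probe sets could not change their differences. Among the 55 translation factor genes 26 were higher, 10 were lower and 19 did not pass. The share that passed, 65.5%, lay near the 70.8% of all genes. Of those that passed, 72.2% were higher, against 48.5% over all genes, and the median difference was 0.11 against -0.04. The probe sets that stand for these genes read bright, with a median signal of 10.68 against 7.15 over all genes, and genes with bright probe sets were higher more often; a probe set's signal depends on its probes as well as on the RNA, so this does not rank the RNAs by abundance. Among genes with a mean level of at least 10, the 33 translation factors comprised 15 that were higher and 5 that were lower, with a median difference of 0.11, and 60.6% passed. All 2963 genes of that range comprised 1520 higher (51.3%) and 807 lower (27.2%), so that 78.5% passed, with a median of 0.12. Within that range the factors' median level was still higher, at 11.93 against 10.92, so level was not matched there. In narrower ranges of level the factors' median difference lay near that of all genes from a level of 8 up. It was 0.27 against 0.23 from 8 to 10 (15 factors), 0.13 against 0.14 from 10 to 12 (18), and 0.06 against 0.04 from 12 up (15). From 6 to 8 it was 0.27 against 0.003 (5 factors), and below 6 it was -0.02 against -0.19 (2). In such bulk samples a difference in the share of some cells and a difference in RNA per cell cannot be told apart.

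**Figure D1:**
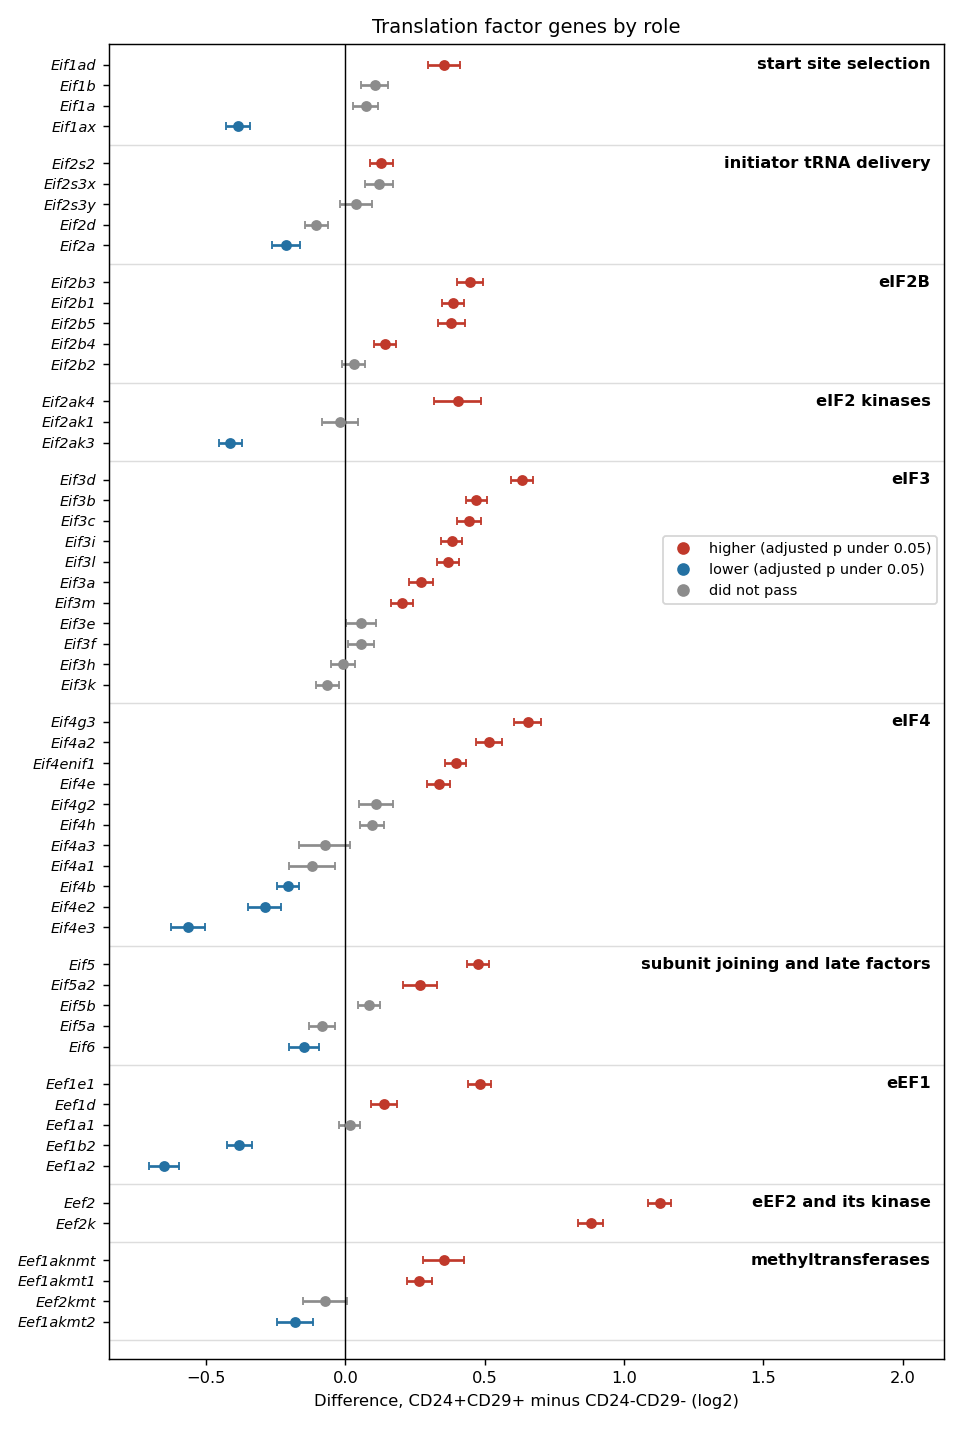
Difference between CD24+CD29+ and CD24-CD29- cells (log2) for each of the 55 genes, grouped by role; points are limma estimates from 3 arrays per group, bars are standard errors, and red, blue and grey mark genes that were higher, lower or did not pass. Eef2 lies farthest to the right, at 1.13, and Eef1a2 farthest to the left, at -0.65.

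Most of the differences were small. Only Eef2 differed by at least 2-fold, and 7 genes (5 higher, 2 lower) passed with a difference of at least 0.5, a size that 23.9% of all genes reached. The groups did not overlap for 42 translation factor genes (76.4%), against 73.6% of all genes. The median standard error was 0.04 for these genes and 0.06 for all genes, the smallest difference that passed was 0.13 in size, and the largest that did not pass was 0.12. The direction of small differences depended on the scaling of the arrays. Quantile normalization gave 24 higher and 14 lower genes (63.2% of those past the threshold higher), cyclic loess 25 and 16 (61.0%), and centring each array on its median 32 and 8 (80%). The added poly-A control RNAs read lower in CD24+CD29+ arrays by 1.08 on average over 24 probe sets. Their differences ran from -1.55 to -0.42, so the size of the shift depends on the control used. Scaling the arrays to the mean of these controls put all 55 genes higher (100%). It did so for nearly every gene on the array, where the median difference became 1.05. All directions given here are relative to the deposited scaling. Apart from the poly-A scaling, 20 calls kept their direction under all 14 other alternatives: the higher Eef1e1, Eef2, Eef2k, Eif2b1, Eif2b3, Eif3a, Eif3b, Eif3c, Eif3d, Eif4a2, Eif4e, Eif4enif1, Eif4g3, Eif5 and Eif5a2, and the lower Eef1a2, Eef1b2, Eif2a, Eif2ak3 and Eif4e3. Among these, Eef1e1, Eif2b1, Eif2b3, Eif3b, Eif4a2, Eif4enif1, Eef1a2 and Eef1b2 were read by 1 probe set. For such genes averaging probe sets or keeping _x_at sets could not change the difference, so those alternatives did not test them. Values after ± are SD over the 3 arrays of a group throughout.

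**Figure D2:**
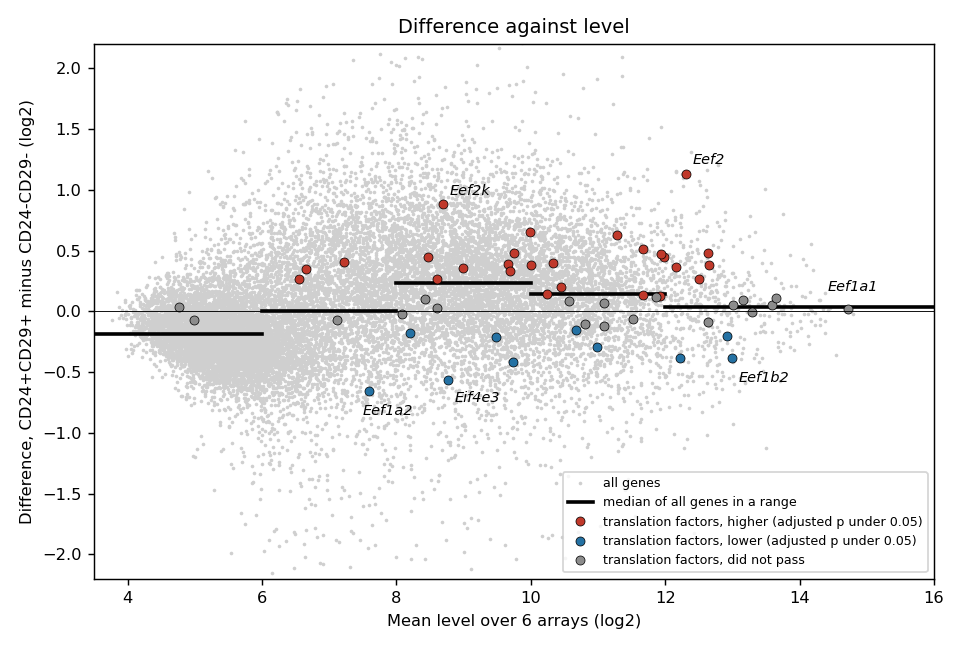
Difference (log2) against mean level over the 6 arrays (log2), for the 55 translation factor genes in colour and all genes in grey; genes past the ends of the vertical axis are not drawn, and black lines give the median of all genes within a range of level. That median was -0.19 below a level of 6 and 0.23 between 8 and 10; Eef2 and Eef2k lie well above it, and Eef1a2, Eif4e3 and Eef1b2 below it.

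The elongation factors held the largest differences in both directions. Eef2, the translocase, had log2 levels of 12.89, 12.83 and 12.90 in CD24+CD29+ cells, against 11.76, 11.75 and 11.73 in CD24-CD29- cells. The groups lay far apart beside their spread, 12.88 ± 0.04 against 11.75 ± 0.01 (SD, n = 3 each), a ratio of 2.19 (difference 1.13, SE 0.04, limma adjusted p = 7.1e-07). Its other probe set was dim, at 4.63 in both groups, and did not pass, and the mean over both probe sets gave 0.56, which passed. Eef2k, the kinase that inhibits eEF2, moved the same way as its substrate. It had 9.13, 9.15 and 9.11 in CD24+CD29+ cells, against 8.25, 8.30 and 8.20 in CD24-CD29- cells, a 1.84-fold difference (difference 0.88, SE 0.04, limma adjusted p = 2.4e-06). All 3 of its probe sets were higher, by 0.88, 0.64 and 0.34; the one that stands for the gene ends in _s_at, a class that can match transcripts of more than 1 gene.

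Of the paralogs of the aminoacyl-tRNA carrier eEF1A, Eef1a2 was lower and Eef1a1 did not pass, and the difference between them was not tested. Eef1a2, known as the form of muscle and neurons, had 7.21, 7.24 and 7.37 in CD24+CD29+ cells, against 7.94, 7.91 and 7.92 in CD24-CD29- cells. It was 1.57-fold lower (difference -0.65, SE 0.05, limma adjusted p = 2.4e-05), with no overlap between the groups. Eef1a1, the ubiquitous form, had 14.73, 14.72 and 14.73 in CD24+CD29+ cells, against 14.70, 14.72 and 14.71 in CD24-CD29- cells, and did not pass (difference 0.02, SE 0.04, limma adjusted p = 0.73). The highest value on any array lay between 14.91 and 14.95, so the Eef1a1 probe set read close to that ceiling, where differences can be compressed.

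Of the subunits that exchange GDP for GTP on eEF1A, Eef1b2 was lower. It had 12.84, 12.78 and 12.77 in CD24+CD29+ cells, against 13.14, 13.23 and 13.18 in CD24-CD29- cells, a 1.3-fold lower level (difference -0.38, SE 0.05, limma adjusted p = 0.00016). The subunit Eef1d was slightly higher, at 11.73 ± 0.05 against 11.60 ± 0.04 (difference 0.14, limma adjusted p = 0.029). That direction rests on the choice of probe set, since its brightest probe set, an _x_at set, was lower by 0.62, and the mean of its probe sets gave -0.17. The Eef1d call also ended under cyclic loess and quantile normalization and when CD24+CD29+ array 1 or 3 or CD24-CD29- array 1 or 3 was left out (adjusted p between 0.073 and 0.096). Eef1e1, which encodes a scaffold protein of the aminoacyl-tRNA synthetase complex, was higher, at 10.00 ± 0.01 against 9.52 ± 0.03 (difference 0.48, limma adjusted p = 2.6e-05).

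**Figure D3:**
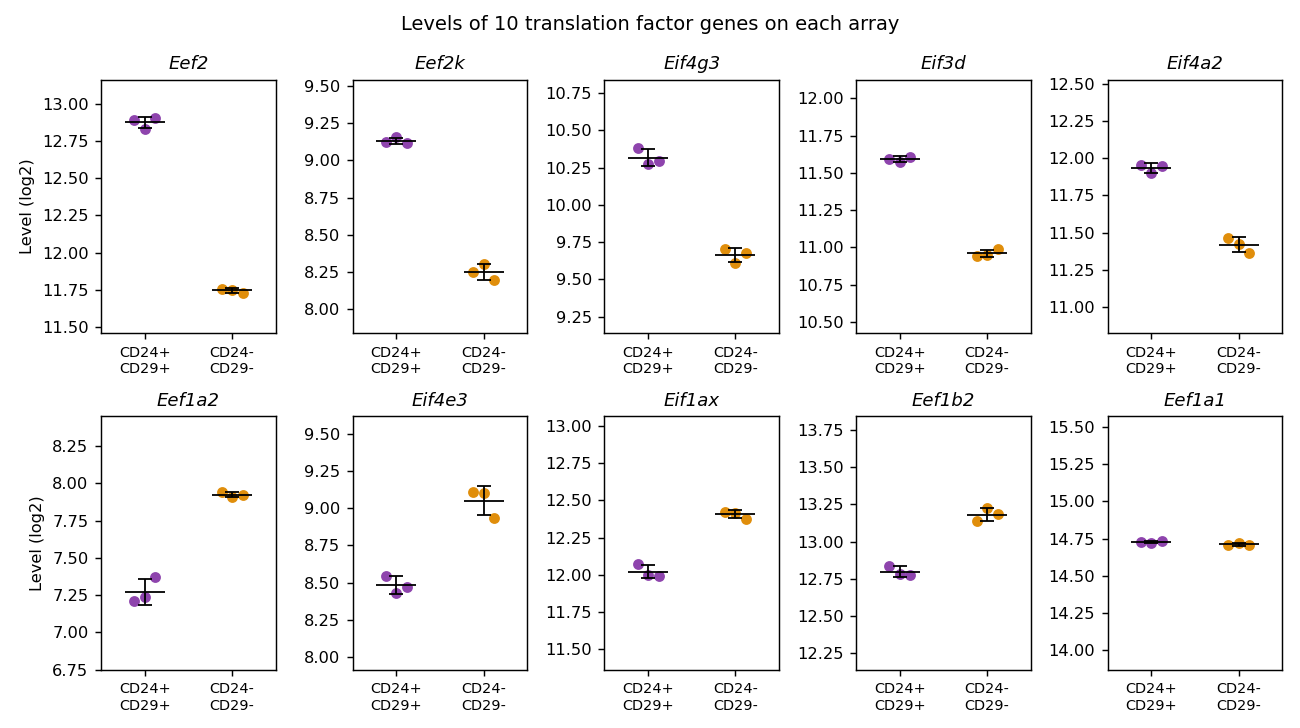
Log2 level of 10 genes on each array, with CD24+CD29+ arrays on the left and CD24-CD29- arrays on the right of each panel; horizontal lines are means, bars are SD (n = 3), and each vertical axis has its own range. The 3 arrays of a group lie close together beside the distance between groups in all panels but that of Eef1a1.

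Methyltransferases that modify the elongation factors changed in both directions. Eef1aknmt, which methylates eEF1A, was higher by 0.35 (limma adjusted p = 0.0033), and Eef1akmt1, which methylates a lysine of eEF1A, by 0.27 (0.00097). Both differences lost the threshold when all probe sets of the gene were averaged, and that of Eef1akmt1 under cyclic loess and quantile normalization too. Eef1akmt2, a further lysine methyltransferase of eEF1A, was lower by 0.18 on the log2 scale (limma adjusted p = 0.034), and did not pass with the arrays centred on their medians or when CD24+CD29+ array 2 or 3 or CD24-CD29- array 1 or 2 was left out (adjusted p 0.056 to 0.10). Eef2kmt, which methylates eEF2, had a difference of -0.07 and did not pass.

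Among the initiation factors 7 of 11 measured subunits of eIF3 were higher and none was lower, with a median difference of 0.27, although Eif3e was lower and passed when its probe sets were averaged, and Eif3k under cyclic loess and quantile normalization (-0.14 and -0.11). The median over the subunits was 0.26 and 0.29 under those normalizations, and 0.06 when the probe sets of each gene were averaged. Of the 11 subunits 63.6% passed, against 70.8% of all genes. Among all genes with a mean level of at least 10, the range of the eIF3 genes, 51.3% were higher, with a median difference of 0.12. The largest eIF3 difference was that of Eif3d, a subunit known to bind the cap of some mRNAs. It had 11.59, 11.57 and 11.61 in CD24+CD29+ cells, against 10.94, 10.95 and 10.99 in CD24-CD29- cells, a 1.55-fold difference (difference 0.63, SE 0.04, limma adjusted p = 6.6e-06). Averaged with its second, dim probe set the difference was 0.22 and still passed. Other core subunits were higher too. Eif3b, a scaffold subunit, had 12.19, 12.16 and 12.15 in CD24+CD29+ cells, against 11.70 on each CD24-CD29- array (difference 0.47, limma adjusted p = 2.5e-05). Eif3c, which contacts the other factors of the initiation complex, had 12.23, 12.16 and 12.24, against 11.74, 11.76 and 11.80 (difference 0.44, limma adjusted p = 5.8e-05). Eif3a, the largest subunit, had 12.68, 12.59 and 12.66, against 12.36, 12.40 and 12.36 (difference 0.27, limma adjusted p = 0.00088). For these 4 subunits no array of one group reached the levels of the other.

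Eif3i, Eif3l and Eif3m were higher by 0.38, 0.37 and 0.20, but their other probe sets had differences of the opposite sign, and the mean of each gene's probe sets left 0.02, 0.02 and -0.04, none past the threshold. Cyclic loess and quantile normalization also ended the Eif3m call. The second probe set of Eif3i was as bright as many that stand for a gene, at 11.87 in CD24+CD29+ cells and 12.21 in CD24-CD29- cells, and lower by 0.33. Eif3e, Eif3f, Eif3h and Eif3k had differences of 0.06, 0.06, -0.01 and -0.06 and did not pass. The other 3 probe sets of Eif3e were lower, by 0.30, 0.54 and 0.25, and averaging all 4 gave -0.26, which passed (limma adjusted p = 0.0013), so that Eif3e was lower by that reading. Eif3e, Eif3f and Eif3h are 3 of the genes with a known TOP mRNA.

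The guanine exchange factor eIF2B, which sets the supply of active eIF2, had 4 of 5 subunits higher and none lower, with a median difference of 0.38, although Eif2b2 was lower and passed under cyclic loess and quantile normalization (-0.18 and -0.17). Those normalizations put the median at 0.20 and 0.22, and averaging each gene's probe sets put it at 0.14. Of the 5 genes 80% passed, against 70.8% of all genes. All 4421 genes with a level of 8 to 10 comprised 2575 higher, with a median difference of 0.23. That range held the median level of eIF2B, 9.66. Eif2b3, of its catalytic part, had 8.73, 8.73 and 8.65 in CD24+CD29+ cells, against 8.28, 8.28 and 8.20 in CD24-CD29- cells (difference 0.45, limma adjusted p = 8.5e-05). Eif2b1, of its regulatory part, had 9.86, 9.86 and 9.84, against 9.47, 9.48 and 9.46 (difference 0.39, limma adjusted p = 6.6e-05). Eif2b5, the catalytic subunit, was higher by 0.38 (limma adjusted p = 0.00025; 0.12 and adjusted p = 0.0501, not past the threshold, with its probe sets averaged). Eif2b4 was higher by 0.14 (limma adjusted p = 0.014), a call that cyclic loess and quantile normalization ended, with differences of -0.0095 and -0.0035, and Eif2b2 had 0.03 and did not pass. Eif2b1 and Eif2b3 kept their calls under every alternative that was run. Each was read by 1 probe set, so averaging or choosing probe sets could not change its difference, unlike that of Eif2b5.

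The kinases that phosphorylate eIF2 under stress split. Eif2ak3 encodes PERK, the kinase of the unfolded protein response. Its levels were 9.55, 9.50 and 9.52 in CD24+CD29+ cells, against 9.98, 9.93 and 9.90 in CD24-CD29- cells, 1.33-fold lower (difference -0.41, SE 0.04, limma adjusted p = 8.1e-05). Eif2ak4 encodes GCN2, the sensor of amino acid shortage. It had 7.57, 7.35 and 7.33 in CD24+CD29+ cells, against 6.88, 7.03 and 7.12 in CD24-CD29- cells (difference 0.40, SE 0.09, limma adjusted p = 0.0037). The arrays of a group spread more than for Eif2ak3, the groups did not overlap, and the probe sets of Eif2ak4 averaged to 0.11 without passing. Eif2ak1, which encodes the haem-regulated kinase HRI, had a difference of -0.02 and did not pass, while its other probe sets ranged from -0.50 to 0.58.

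Of the eIF2 subunits and alternative tRNA carriers 2 of 5 passed. Eif2s2, the beta subunit, was higher by 0.13 (limma adjusted p = 0.025), a call that ended under cyclic loess and quantile normalization and when CD24+CD29+ array 1 or 3 or CD24-CD29- array 2 or 3 was left out (adjusted p 0.056 to 0.080). Its 6 probe sets ranged from -0.79 to 0.14, and their mean gave -0.17. Eif2s3x, the X-linked gamma subunit, had a difference of 0.12 and did not pass (limma adjusted p = 0.060; 0.045 without CD24+CD29+ array 3). Its other probe sets were higher, by 0.43 and 0.34, and all 3 averaged to 0.30 (limma adjusted p = 0.00054). It also passed with the arrays centred on their medians, with a variance trend, with a replicate block and without the dimmest 40% of genes. Its Y-linked copy Eif2s3y read 4.79 in CD24+CD29+ cells and 4.75 in CD24-CD29- cells, below the lower quartile of the arrays, which lay at 5.20 to 5.41. Eif2a, which can bring initiator tRNA without eIF2, was lower by 0.21 on the log2 scale (limma adjusted p = 0.0063), and its other probe sets were lower by 0.80 and 0.22. Eif2d, a further tRNA carrier, had -0.10 and did not pass, whereas 3 of its other probe sets were lower and the average over its 6 gave -0.13 (limma adjusted p = 0.025).

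The cap-binding and helicase group was mixed, with 4 of 11 genes higher, 3 lower and 4 not past the threshold. Eif4e, the cap-binding protein on which mTOR signalling converges, had 9.86, 9.87 and 9.85 in CD24+CD29+ cells, against 9.57, 9.52 and 9.49 in CD24-CD29- cells (difference 0.33, limma adjusted p = 0.0002). Its relatives were lower. Eif4e3, a cap-binding paralog, had 8.55, 8.43 and 8.47, against 9.11, 9.10 and 8.94, 1.48-fold lower (difference -0.57, SE 0.06, limma adjusted p = 0.0001), and its second probe set was lower by 0.44. Eif4e2, a paralog known as a repressor of translation, had 10.88, 10.74 and 10.90, against 11.06, 11.18 and 11.14 (difference -0.29, limma adjusted p = 0.003). The Eif4e2 probe sets went both ways, with 2 others higher by 0.24 and 0.25, and their average did not pass. Eif4enif1, which carries eIF4E into the nucleus, was higher by 0.40 (limma adjusted p = 6.2e-05).

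The scaffold paralog Eif4g3 had 10.38, 10.27 and 10.29 in CD24+CD29+ cells, against 9.71, 9.61 and 9.67 in CD24-CD29- cells, 1.57-fold higher (difference 0.65, SE 0.05, limma adjusted p = 1.6e-05). Its 3 dimmer probe sets had -0.28, -0.06 and 0.30, and all of them averaged to 0.15, which still passed. Eif4g2, a scaffold paralog that lacks the eIF4E-binding site, had 0.11 and did not pass, although 1 of its probe sets was higher by 0.47; without CD24+CD29+ array 3 its difference was 0.16 and passed (limma adjusted p = 0.047).

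Among the helicase genes Eif4a2 alone passed on the probe set that stands for the gene. Eif4a2 had 11.95, 11.90 and 11.95 in CD24+CD29+ cells, against 11.47, 11.42 and 11.37 in CD24-CD29- cells, 1.43-fold higher (difference 0.52, limma adjusted p = 3.4e-05). Eif4a1, the main helicase of initiation, had 11.18, 11.03 and 10.85, against 11.08, 11.19 and 11.16, groups that overlapped (difference -0.12, limma adjusted p = 0.23). Without CD24+CD29+ array 1 it was lower by 0.20 and passed (limma adjusted p = 0.042), while its other probe sets were higher by 0.28 and 0.44 and the average over all was higher by 0.20 (limma adjusted p = 0.011). Eif4a3, the helicase of the exon junction complex, was dim in this reading, at 4.96 in CD24+CD29+ cells and 5.03 in CD24-CD29- cells, and did not pass. Of the helicase cofactors Eif4b had 12.81, 12.81 and 12.84, against 13.03 on each CD24-CD29- array (difference -0.21, limma adjusted p = 0.0018), with its dimmest probe set higher by 0.20 and no call once its probe sets were averaged, and Eif4h had 0.09 and did not pass, although its probe sets averaged to 0.20 and passed (limma adjusted p = 0.0047).

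Of the genes of start site selection 2 of 4 passed, and of those of subunit joining and the late steps 3 of 5. Eif1ax, which encodes the scanning factor eIF1A, had 12.07, 12.00 and 11.99 in CD24+CD29+ cells, against 12.43, 12.42 and 12.38 in CD24-CD29- cells, 1.31-fold lower (difference -0.39, SE 0.04, limma adjusted p = 0.00013). Its 2 dimmer probe sets were higher, by 0.22 and 0.19, and the mean of all 3 was 0.01. Eif1ad, named for its eIF1A domain, was higher by 0.35 (limma adjusted p = 0.00093), a call that cyclic loess and quantile normalization ended, while Eif1a and Eif1b had 0.07 and 0.10 and did not pass.

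Eif5, the protein that makes eIF2 hydrolyse its GTP at the start codon, was higher on every probe set. It had 12.88, 12.90 and 12.85 in CD24+CD29+ cells, against 12.41, 12.40 and 12.39 in CD24-CD29- cells, 1.39-fold higher (difference 0.48, SE 0.04, limma adjusted p = 2.6e-05). All 5 of its probe sets were higher, by 0.38 to 0.62. Eif5a, which helps ribosomes through stretches such as polyproline, had -0.08 and did not pass, whereas its paralog Eif5a2 was higher by 0.27 (limma adjusted p = 0.0049) and by 0.86 on its second probe set. Eif5b, which joins the ribosomal subunits, had 0.08 and did not pass, whereas its other probe sets were higher by 0.47 and 0.36 and the average over all 3 was 0.30 (limma adjusted p = 0.00026). Eif6, which keeps the large subunit from joining early, was lower by 0.15 on the log2 scale (limma adjusted p = 0.036), a call that ended with the arrays centred on their medians and without CD24+CD29+ array 2 or 3 or CD24-CD29- array 1 or 2 (adjusted p 0.078 to 0.12); its second probe set was lower by 0.53.

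Since 39 of the 55 genes were read by more than 1 probe set, up to 6, agreement between probe sets was described for each. Over the 144 probe sets 61 were higher and 33 lower (65.3% passed), against 63.9% of all 45037, of which 29.2% were higher and 34.8% lower. The groups did not overlap for 105, against 68.2% of all probe sets. All probe sets passed in 1 direction for Eef2k, Eif5, Eif1ad, Eif5a2, Eif2a, Eif4e3 and Eif6. Probe sets passed in both directions for 13 genes: Eef1akmt1, Eef1d, Eif1ax, Eif2ak1, Eif2b2, Eif2s2, Eif3d, Eif3i, Eif3m, Eif4b, Eif4e2, Eif4g2 and Eif4g3. Counting only the 87 probe sets with a mean level of at least 8, 6 genes did. Of the 144 probe sets, 21 had a mean level under 6.

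**Figure D4:**
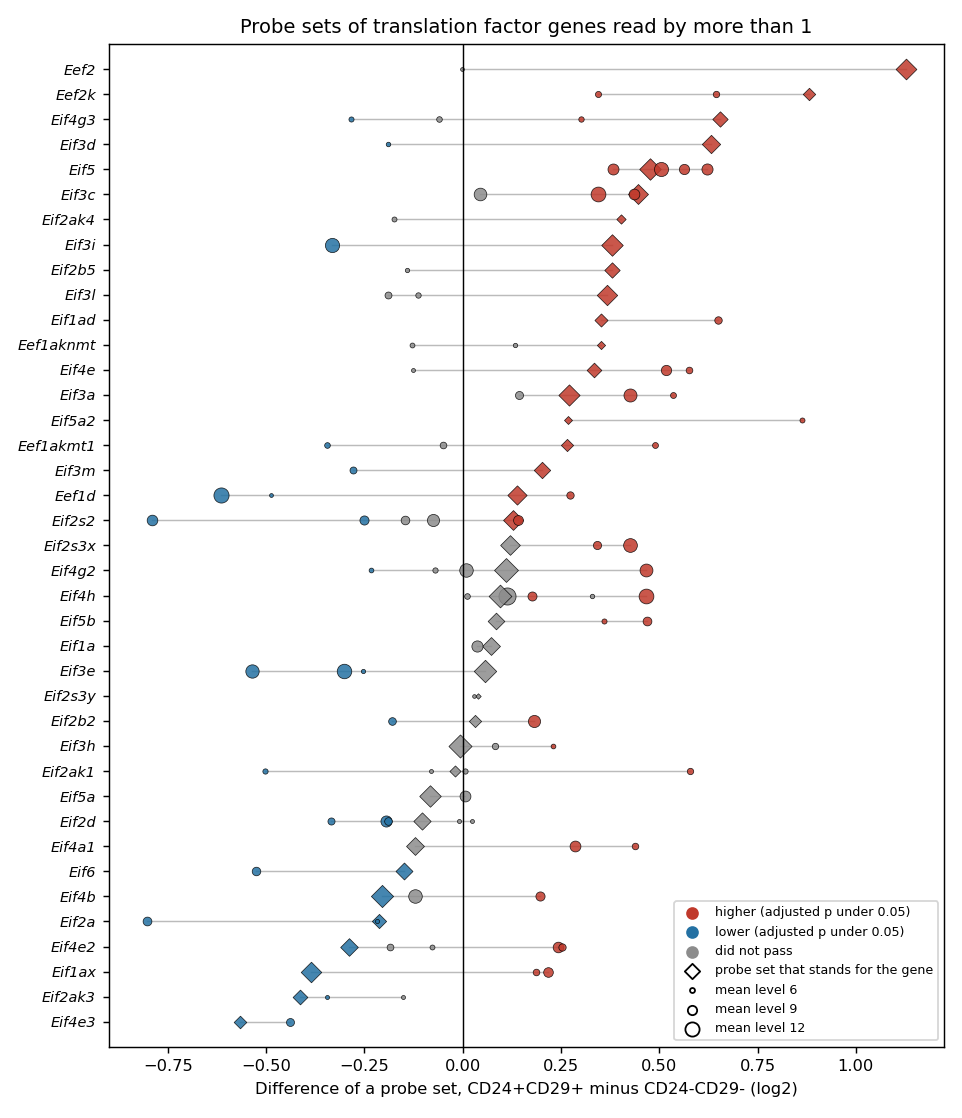
Difference (log2) of every probe set of the 39 genes read by more than 1; each row is a gene, a diamond is the probe set that stands for it, circles are its others, size follows mean level, and colour marks higher, lower or not past the threshold. The probe sets of Eif5 lie together between 0.38 and 0.62, while those of Eif2s2 run from -0.79 to 0.14.

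The genes with a known TOP mRNA did not move as 1 class. Of 9 listed, 8 were measured. Eef2 and Eef1d were higher, Eef1b2 and Eif4b were lower, and Eef1a1, Eif3e, Eif3f and Eif3h did not pass. The median difference of the 8 was 0.04. Some of these readings rest on the choice of probe set. With each gene's probe sets averaged, Eef2 stayed higher (0.56), Eef1d and Eif3e were lower (-0.17 and -0.26), and Eif4b did not pass. Of the 8 measured, 5 had a start in the table, and 2 of those carried the pattern. Among the windows shown above, Eef1a1 and Eif3f carry the pattern and did not pass. Eef2 and Eef1b2, the pair with opposite differences of 1.13 and -0.38, carry none at the annotated start. Eif4b, which was lower and whose window is not shown, carries none either. Over all factors with a start in the table, the 13 with the pattern comprised 6 higher and 1 lower (median difference 0.12), and the 32 without it 16 higher and 7 lower (median difference 0.12).

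Genes of the wider translation apparatus that are not factors of this naming were read beside them. Of 33 measured, 20 were higher and 6 lower, with a median difference of 0.35. Of these genes 78.8% passed, near the 70.8% of all genes. Of those that passed, 76.9% were higher, against 48.5% over all genes. Their median level was 9.58, and all genes with a level of 8 to 10 had a median difference of 0.23. Among 17 genes of translation control 9 were higher and 5 lower. Mtor, the kinase itself, was at 9.99 ± 0.02 in CD24+CD29+ cells and 9.18 ± 0.05 in CD24-CD29- cells (SD, n = 3 each), 1.75-fold higher (difference 0.81, limma adjusted p = 3.5e-06). Its partner Rptor was higher by 0.59, the S6 kinase gene Rps6kb2 by 0.60 and the eIF4E kinase gene Mknk1 by 0.54. Larp1, which binds TOP mRNAs, was higher by 0.58, and Dhps, which acts in making the hypusine of eIF5A, by 0.61. The eIF4E-binding protein gene Eif4ebp1 was higher by 0.43. Lower genes included Pdcd4, an inhibitor of eIF4A, at -0.31, Mknk2 at -0.23 and Rps6 at -0.14; for Mknk2 the average over its probe sets was higher by 0.24, so its direction rests on the choice of probe set.

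The poly(A)-binding protein gene Pabpc4 was higher by 0.74 and the ribosome recycling factor Abce1 by 0.56. The mitochondrial translation factor genes Gfm2 and Tsfm were higher by 0.75 and 0.68. Of 7 mitochondrial factors 6 were higher and none lower, of 5 poly(A)-binding genes 3 and none, and of 4 termination and recycling genes 2 were higher and 1 lower. For Tsfm the mean of its probe sets gave 0.02. Gspt2, a paralog of the release factor gene Gspt1, was lower by 0.93 on the log2 scale, at 5.89 in CD24+CD29+ cells and 6.81 in CD24-CD29- cells.

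Markers of the cell cycle and some markers of other cells differed between the groups. All 8 fibroblast markers were higher, with a median difference of 0.92, and their summed level (log2 of the sum of the markers' linear values on an array) was 13.4 on every CD24+CD29+ array and 12.2 on every CD24-CD29- array. All 5 measured cycling markers were higher, with a median of 0.65 and a summed level of 13.5 to 13.6 in CD24+CD29+ cells and 12.7 in CD24-CD29- cells. Of 9 mammary epithelial markers 2 were higher and 5 lower. Krt5 and Krt14 were higher, by 0.65 and 0.99. Krt8, Krt18, Krt19, Elf5 and Csn3 were lower, with differences of -0.17, -0.42, -0.95, -0.97 and -1.12. Cdh1 and Epcam did not pass. The summed level of the 9 was 16.0 to 16.1 in CD24+CD29+ cells and 16.2 in CD24-CD29- cells. Epcam stood at 14.11 in CD24+CD29+ cells and 14.13 in CD24-CD29- cells, so its probe set read bright in both groups. The 6 leukocyte markers had 3 lower and none higher, with a summed level of 8.50 to 8.64 in CD24+CD29+ cells and 9.05 to 9.06 in CD24-CD29- cells, and the lower markers read above the arrays' lower quartile in both groups: Csf1r at 6.75 in CD24+CD29+ cells and 7.63 in CD24-CD29- cells, Cd3e at 6.29 and 6.73, and Adgre1 at 6.54 and 6.89. Ptprc, the pan-leukocyte marker, read 4.85 and 4.94, below that quartile. Of 5 endothelial markers 1 was higher and 1 lower, of 3 adipocyte markers 1 and 1, and both measured erythroid markers were lower. The lower markers of these 3 lists were dim. The erythroid Hba-a1 read 5.23 in CD24+CD29+ cells and 5.64 in CD24-CD29- cells, and Alas2 read 5.32 and 5.72, near the quartile. The endothelial Tek, at 4.83 and 5.03, and the adipocyte Cidec, at 4.64 and 4.83, lay below it. All genes below a level of 6 had a median difference of -0.19. Of the endothelial markers Cdh5 was higher, at 5.27 in CD24+CD29+ cells and 4.98 in CD24-CD29- cells, Kdr read 6.47 and 6.31, and Pecam1 read 4.87 and 5.00, below the quartile. Of the adipocyte markers Fabp4 was higher, at 6.72 in CD24+CD29+ cells and 5.84 in CD24-CD29- cells, and Adipoq read 4.32 and 4.51, below the quartile. The part of these markers in the differences of the translation factors was not tested.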

How the data were processed

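The authors deposited log2 values for every probe set of 6 arrays, made with RMA and Partek per the submitters' processing notes. Their versions, settings and order are not given in those notes, and no detection calls were used. Every value column was mapped to a sample. Probe sets were named through the platform annotation, which can be old: 34945 had 1 symbol, 932 several and 9160 none, beside 64 controls. All 55 symbols were found in the RefSeq gene table of GRCm38.p6.

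The groups, taken from the labels, were compared by 2-sided tests in limma 3.58.1 (R 4.3.3; lmFit, then eBayes without a trend), with Benjamini-Hochberg adjustment over 18193 genes and, in a second fit, over 45037 probe sets. The script was tested on simulated data. Precision is limited by having 3 arrays per group.

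The groups were compared without pairing. Whether the replicate numbers pair the samples could not be told from 3 arrays per group. Deviations of same-numbered arrays correlated at 0.22, -0.05 and 0.04, and those of differently numbered arrays at -0.24 to 0.21. The genes and lists were chosen with earlier results of these data known. The naming rule took members with a difference of at least 0.5, the largest rise and fall of each role, core factors, paralogs and genes with discordant probe sets; the remaining members are given so that all 55 are accounted for. Other normalizations, filters, probe set choices, a variance trend, a replicate block and leaving out each array were tried.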

Additional observations from a re-analysis of the deposited data

How the results depend on the processing

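Of the 26 higher and 10 lower genes, 15 and 5 kept their call and direction under all 14 alternatives other than scaling to the poly-A controls. For the 16 genes with 1 probe set, averaging probe sets or keeping _x_at sets could not change the difference. Whether the replicate numbers pair the samples is not known, and 2 of 3 CD24+CD29+ arrays correlated best with the CD24-CD29- array of their own number. With a replicate block 26 genes were higher and 9 lower; Eef1d (adjusted p = 0.060) and Eif6 (0.054) were lost and Eif2s3x (0.047) was gained. Scaling to the poly-A controls adds 1.08 to every difference. The counts of genes became 55 past the threshold, 55 higher and 0 lower, those of probe sets 144 higher and 0 lower, those of other translation genes 32 higher and 0 lower, and the median difference over translation factors 1.19. Among the translation factors and the other translation genes past the threshold, those whose sign turned under it were Eef1a2 0.43, Eef1akmt2 0.90, Eef1b2 0.70, Eef2kmt 1.01, Eif1ax 0.70, Eif2a 0.87, Eif2ak1 1.06, Eif2ak3 0.67, Eif2d 0.98, Eif3h 1.07, Eif3k 1.02, Eif4a1 0.96, Eif4a3 1.01, Eif4b 0.88, Eif4e2 0.79, Eif4e3 0.52, Eif5a 1.00, Eif6 0.93, Gspt2 0.16, Eif4ebp2 0.95, Rps6 0.95, Mknk2 0.85, Pdcd4 0.78 and Denr 0.96. Cyclic loess gave 16 lower genes and turned Eif1a (-0.028), Eif1b (-0.11), Eif2b2 (-0.18), Eif2b4 (-0.0095), Eif3h (0.038), Eif4a3 (0.058), Eif5b (-0.049) and Paip1 (-0.049). Quantile normalization turned Eif1a (-0.016), Eif1b (-0.091), Eif2b2 (-0.17), Eif2b4 (-0.0035), Eif3h (0.070), Eif4a3 (0.052), Eif5b (-0.037) and Paip1 (-0.043). Median centring left 3 other translation genes lower and turned Eif2ak1 (0.035) and Eif3h (0.047). Averaging the probe sets of each gene turned Eef1d (-0.17), Eif1ax (0.0056), Eif2s2 (-0.17), Eif3e (-0.26), Eif3h (0.10), Eif3m (-0.038), Eif4a1 (0.20), Mknk2 (0.24), Denr (0.11), Pabpc1 (-0.0069) and Paip1 (-0.082), and keeping _x_at probe sets turned Eef1d (-0.62). Apart from the poly-A scaling, whose construction adds a constant, the cause of these turns was not tested. Leaving out 1 array gave 11758 to 12407 of all genes past the threshold, 33 to 35 translation factors (24 to 26 higher, 8 to 11 lower), a median difference of 0.09 to 0.13, 52 to 58 probe sets higher and 29 to 32 lower, and 19 other translation genes higher and 3 to 5 lower. Differences that changed sign there lay at -0.036 to 0.010 for Eif3h, -0.083 to 0.028 for Eif2ak1, -0.022 to 0.077 for Eif2s3y and -0.16 to 0.022 for Eif4a3. The number of arrays limits what can be told apart, and dim probe sets can show compressed differences.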
